A study of Mus musculus with 20 samples.

Results

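The 10 libraries of sorted tumour leukocytes in this data set were ranked on Ms4a1, the gene for the B cell surface protein CD20, and divided into 5 B-cell-rich and 5 B-cell-poor libraries. The 5 were the libraries with the highest Ms4a1 CPM, the count scaled to the total in genes, and they are 5 of the 20 libraries in the series. The tumours came from cultured KPC cells, murine pancreatic cancer lines, implanted orthotopically in the pancreas of C57BL/6 mice that were wild type (WT) or IL33-/- (labelled IL33KO), and were taken at 2 weeks with no treatment. CD45+ cells had been pulled from dissociated tumours with magnetic beads, and poly(A) RNA was sequenced from 5 such libraries for each host genotype; the knockout is one of the host. The B-cell-rich side held 3 IL33KO and 2 WT libraries, and the B-cell-poor side 2 IL33KO and 3 WT libraries, so neither side was of a single genotype. The labels name 5 hosts of each genotype without tying libraries to mice, and they state no ages.

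B cells recognise antigen through a surface immunoglobulin coupled to the CD79A and CD79B signalling chains, and their identity is kept by transcription factors such as PAX5 and EBF1. Naive follicular B cells carry IgM and IgD, the low-affinity IgE receptor CD23 and the complement receptor CD21, and home to follicles through CXCR5. Activated B cells can switch immunoglobulin class, enter germinal centres, and become plasma cells, which lose CD20 and PAX5 and secrete antibody. In pancreatic tumours B cells are known from lymphoid aggregates near the tumour as well as from scattered infiltrates.

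Because the sides were chosen on a measured gene of the same libraries, the differences between them are given as a description, with no test. Fewer cells of a type and less RNA per cell cannot be told apart in such libraries. In falling order of Ms4a1 the libraries were IL33KO 1, WT 3, IL33KO 2, IL33KO 3 and WT 1 on the B-cell-rich side and WT 2, WT 4, IL33KO 5, WT 5 and IL33KO 4 on the B-cell-poor side. Per-library values below follow these 2 orders. Ms4a1 itself, which set the order, was at 130.1, 101, 99.3, 84.4 and 41.3 on the B-cell-rich side and 24.1, 18.9, 17.5, 15.9 and 13.4 on the B-cell-poor side, in CPM. Ms4a1 lies on chromosome 19, from 11249675.0 to 11266241.0, and Cr2, the most different B cell gene below, on chromosome 1, from 195136811.0 to 195176716.0, both protein-coding genes on the minus strand of GRCm38 in GENCODE. Just inside the division lay WT 1 at 41.3 CPM and just outside it WT 2 at 24.1 CPM.

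The libraries held 53.3 to 69.2 M counts in genes (M stands for mega), and 3 counts corresponded to 0.0433 to 0.0563 CPM. WT 3 and IL33KO 3, both B-cell-rich, scored highest on the first principal component, with 29.6% of the variance. Their scores were 40.0 and 32.9 against -30.5 to 19.5 in the other 8 libraries, with IL33KO 2 nearest. On the second component (20.5%) they were not alike, at 3.94 and 35.2. The haemoglobin gene Hbb-bs was at 15.04 and 41.8 CPM in WT 3 and IL33KO 3 against 183 CPM or more in the others. Haemoglobin genes have near-identical copies, so their counts are uncertain. Ptprc, which encodes the CD45 used for selection, was at 505 to 761 CPM in the sorted libraries against 50.1 to 138 CPM in the 10 bulk tumour libraries, and Ms4a1 in bulk tumour was at 0.286 to 24.4 CPM. Il33, the targeted gene, was not lower in the libraries labelled IL33KO (12.3 to 21.1 CPM) than in WT (4.94 to 15.7 CPM), so its level does not check the labels, and each direction drawn from genotype rests on them.

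Sequences around RefSeq starts are shown for 2 members of the B cell identity list. These are Spib, an ETS factor of the lymphoid lineage, and Cd22, an inhibitory co-receptor. They were chosen because both genes were higher in every B-cell-rich library and because their windows hold the core letters CCCNNGGG of the EBF1 motif, which reads the same on both strands. Capitals mark the match, and each window runs from 250 bases before to 50 bases after a RefSeq start of the gene on GRCm38, on the minus strand. In GENCODE Cd22 runs from 30865402 to 30880342, so its window lies inside that gene and not upstream of it.
Spib, chr7:44532022-44532321: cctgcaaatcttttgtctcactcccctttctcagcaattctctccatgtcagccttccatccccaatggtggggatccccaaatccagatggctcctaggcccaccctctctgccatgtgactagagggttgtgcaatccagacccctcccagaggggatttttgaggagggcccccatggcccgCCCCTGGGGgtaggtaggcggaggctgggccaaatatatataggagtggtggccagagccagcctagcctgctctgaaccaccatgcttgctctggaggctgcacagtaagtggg
Cd22, chr7:30878979-30879278: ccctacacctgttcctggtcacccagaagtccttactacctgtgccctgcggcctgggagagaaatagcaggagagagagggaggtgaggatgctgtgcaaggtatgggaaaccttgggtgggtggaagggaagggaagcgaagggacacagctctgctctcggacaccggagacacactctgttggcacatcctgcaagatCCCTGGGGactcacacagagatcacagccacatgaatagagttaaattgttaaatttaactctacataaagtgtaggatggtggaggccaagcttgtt
In Spib the capitals cover 2 overlapping matches, which begin 65 bases before the RefSeq start. The match of Cd22 begins 48 bases before the RefSeq start of its own window. Of the 24 genes of the list, 19 had a RefSeq window, 24 windows in all, and 3 of these held the core (Bank1, Cd22 and Spib). The core stood in 13.7% of all 32851 windows of the same length. The octamer ATTTGCAT, searched on both strands, was in 2 of the 24 windows (Blnk and Vpreb3) and in 1.74% of all windows. A match is a description of the letters, not a bound site.

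B cell identity genes were higher on the B-cell-rich side as a group. Of the 23 members other than Ms4a1, 17 were higher in each of the 5 B-cell-rich libraries than in any B-cell-poor library (written as no overlap below), 22 had a positive difference, and the median difference of mean log2(CPM + 1) was 1.32. Over all 16730 genes compared the share higher with no overlap was 0.819% (137 genes), and the median difference was -0.06. A positive difference was found for 36.5% of all genes. These genes mark the same cells as Ms4a1, so their count describes the ranking and is not independent of it.

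Among signalling genes, Cd79a, a chain of the B cell receptor complex, was at 273, 147, 256, 133 and 136 on the B-cell-rich side and 122, 82.2, 45.6, 61.8 and 39.3 on the B-cell-poor side, in CPM. All 5 B-cell-rich libraries lay above WT 2, the highest of the other side, by a small margin in IL33KO 3 and WT 1. The mean was 189 ± 69.4 against 70.1 ± 33.3 CPM (SD, n = 5), a difference of 1.46 on the log2(CPM + 1) scale, which understates the change of low genes. Its partner Cd79b was at 194, 134, 166, 123 and 103 on the B-cell-rich side and 85.8, 72.4, 36.6, 42.4 and 28.9 on the B-cell-poor side, in CPM, with means of 144 ± 35.9 against 53.2 ± 24.6 CPM (SD, n = 5). IL33KO 1 and IL33KO 2 were highest, and WT 1 was the B-cell-rich library nearest to the other side. Cd22 showed a smaller difference of 0.68, with means of 99.5 ± 32.4 against 59.9 ± 6.97 CPM (SD, n = 5).

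Transcription factors of the lineage followed the same order of sides. Pax5, which maintains B cell identity, was at 109, 29.2, 75.7, 32.7 and 39.1 on the B-cell-rich side and 23.98, 17.4, 13.8, 14.5 and 11.3 on the B-cell-poor side, in CPM. The sides did not overlap, but IL33KO 1 and IL33KO 2 carried most of the distance, with WT 3 only slightly above WT 2. Ebf1, the early B cell factor, differed by 1.32, with means of 13.2 ± 7.62 against 4.23 ± 1.33 CPM (SD, n = 5). Spib, whose upstream window is printed above, was at 80.1, 44.8, 57.7, 48.3 and 40.99 on the B-cell-rich side and 23.1, 19.4, 17.8, 15.1 and 14.7 on the B-cell-poor side, in CPM. Its lowest B-cell-rich library was clearly above its highest B-cell-poor one.

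The largest differences in the list were those of genes of mature follicular cells. Cr2, which encodes the complement receptor CD21, was at 54.7, 13.4, 29.98, 33.7 and 16.98 on the B-cell-rich side and 6.65, 6.01, 7.82, 5.13 and 4.48 on the B-cell-poor side, in CPM. The sides were separate, and the B-cell-poor libraries varied little. Its mean was 29.8 ± 16.3 against 6.02 ± 1.303 CPM (SD, n = 5), a difference of 1.99. Cxcr5, the receptor for the follicle chemokine CXCL13 and also carried by follicular helper T cells, was at 45.97, 42.4, 54.6, 35.3 and 31.5 on the B-cell-rich side and 14.96, 9.06, 8.46, 12.5 and 10.4 on the B-cell-poor side, in CPM. It was the most even of these genes over the B-cell-rich libraries. Fcer2a, which encodes CD23, differed by 1.71, and Fcmr, the receptor for the Fc part of IgM, by 1.89.

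The other 6 members of the list overlapped between the sides. Vpreb3, Pou2af1, Tnfrsf13c, Blnk and Cd180 had positive differences of 0.43 to 1.35. Pou2af1, a coactivator of immunoglobulin genes that plasma cells keep, was at 103, 172, 118, 48.5 and 50.3 on the B-cell-rich side and 75.5, 71.9, 22.7, 23.3 and 14.9 on the B-cell-poor side, in CPM. WT 2 and WT 4 lay above IL33KO 3 and WT 1 there. Cd72, a B cell co-receptor that macrophages can also carry, had a difference of -0.21, with means of 74.6 ± 14.8 against 85.96 ± 12.6 CPM (SD, n = 5).

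**Figure D1:**
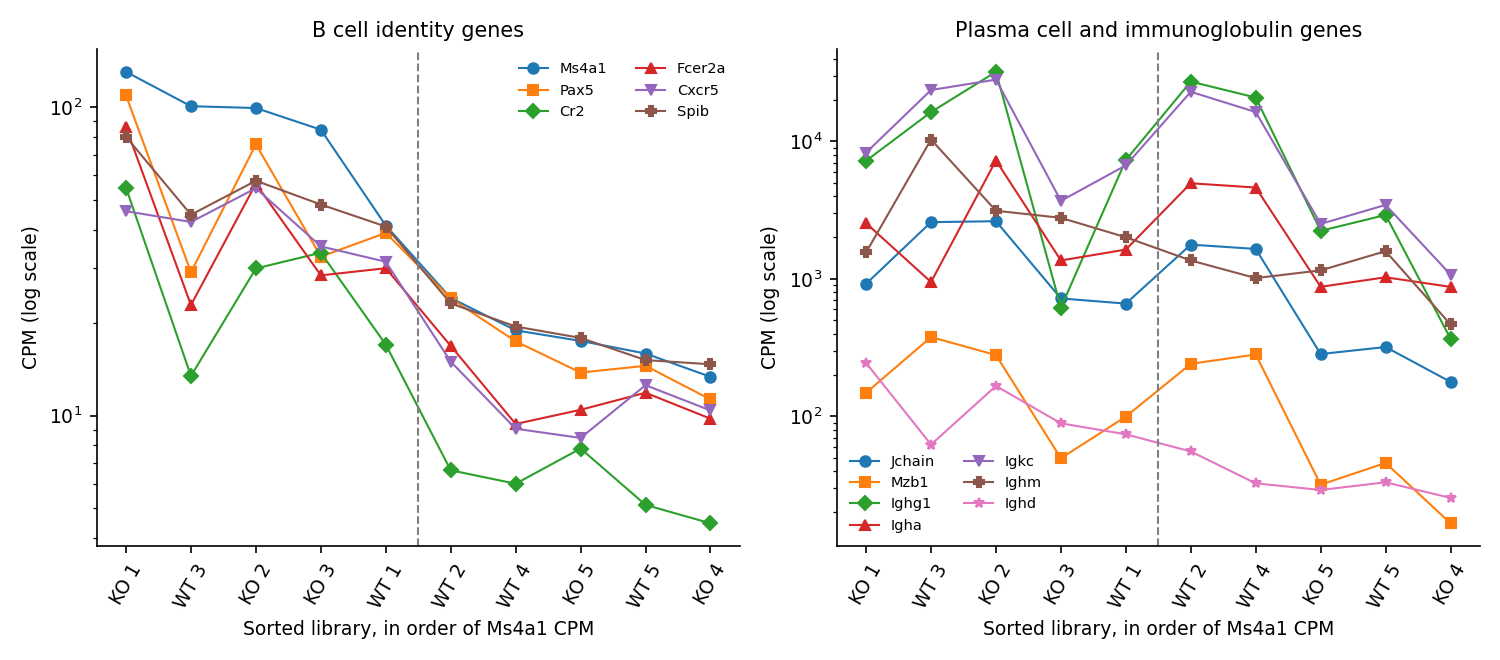
CPM on a log axis in the 10 sorted libraries, in falling order of Ms4a1 (KO stands for IL33KO), with a dashed line between B-cell-rich and B-cell-poor libraries; each line is a gene. The B cell identity genes lie higher to the left of the line, Cr2 at 13.4 to 54.7 against 4.48 to 7.82 CPM, while Jchain and Mzb1 are high again in WT 2 and WT 4.

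The ratio of B cell genes to Ms4a1 was not the same in all libraries, and for 5 of 7 genes both WT 3 and IL33KO 3 lay below the range of the other 8. Pax5 was at 0.290 of the Ms4a1 CPM in WT 3 and 0.388 in IL33KO 3, against 0.762 to 0.997 in the other 8. Fcer2a was at 0.227 and 0.337 against 0.497 to 0.746, and Ighd at 0.618 and 1.05 against 1.66 to 2.30. Cd79a was at 1.46 and 1.58 against 2.10 to 5.06, and Spib, with the narrowest gap, at 0.445 and 0.572 against 0.581 to 1.10. For Cr2 only WT 3 was outside the others, at 0.134 against 0.276 to 0.448, with IL33KO 3 inside that range at 0.399. For Cxcr5 both libraries lay inside the range of the others. WT 3 and IL33KO 3 also scored highest on the first principal component, and whether the ratios come from the same source was not tested.

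Immunoglobulin genes gave a different picture from B cell identity genes. All 12 constant region genes had positive differences, against 36.5% of all genes, with a median of 1.06. Only Ighd, the constant region of IgD, had no overlap, 1 of 12 against 0.819% of all genes. Within IL33KO all 12 differences were positive (median 2.21), and within WT 7 of 12 (median 0.33), with Ighg1 at -0.11, Ighg2b at -0.39 and Igha at -1.20; the difference between the genotypes was not tested. Over all 10 libraries the sign of Ighg1 turned without IL33KO 4 (-0.15). That of Ighe turned without IL33KO 1 (-0.27) or IL33KO 4 (-0.31), and that of Igha without IL33KO 2 (-0.23), IL33KO 4 or IL33KO 5 (-0.03 each). Ighd was at 244, 62.2, 166, 88.8 and 73.9 on the B-cell-rich side and 55.4, 32.5, 29.1, 33.04 and 25.4 on the B-cell-poor side, in CPM. IL33KO 1 and IL33KO 2 were highest, and WT 3 was the lowest of the B-cell-rich side. Ighm, the constant region of IgM, was at 1557, 10321, 3131, 2779 and 2007 on the B-cell-rich side and 1360.4, 1012, 1152, 1589.7 and 466 on the B-cell-poor side, in CPM. WT 3 held far more of it than any other library, and WT 5 of the B-cell-poor side lay just above IL33KO 1. Ighg1, the constant region of IgG1, was at 7229.6, 16356, 32111, 617 and 7323 on the B-cell-rich side and 27258, 20860.4, 2235, 2915 and 367 on the B-cell-poor side, in CPM. Libraries of both sides stood at each end of its range, with IL33KO 3 low and WT 2 and WT 4 high.

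Each of the 10 plasma cell genes overlapped between the sides, 9 had positive differences, and the median was 0.49. With 0.819% of all genes higher with no overlap, 0 of 10 is near the background and says nothing particular of these genes. Jchain, which joins IgM and IgA into polymers, was at 919.9, 2586, 2627, 719.8 and 660.2 on the B-cell-rich side and 1774, 1650.1, 283, 319 and 178 on the B-cell-poor side, in CPM. WT 3, IL33KO 2, WT 2 and WT 4 were the high libraries. Mzb1, a chaperone of antibody-secreting cells, was at 148, 377, 279, 49.4 and 99.3 on the B-cell-rich side and 241, 281, 31.7, 45.7 and 16.6 on the B-cell-poor side, in CPM. The same 4 libraries were highest, and Derl3, of endoplasmic reticulum quality control, also had them as its 4 highest. Jchain stood at 73.8 and 87.4 times the Ms4a1 CPM in WT 2 and WT 4 and at 7.07 to 26.5 times in the other 8. Sdc1, which encodes the plasma cell marker CD138 and is also expressed by epithelium, had a difference of -0.22.

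The make-up of heavy chain transcripts varied within both sides. Class-switched genes (all IgG, IgA and IgE) took 87.5, 66.4, 93.3, 46.6 and 83.1% of heavy chain constant counts on the B-cell-rich side and 96.4, 96.4, 74.4, 72.4 and 75.7% on the B-cell-poor side. WT 2 and WT 4 were at the top and IL33KO 3 at the bottom, where Ighm took 51.8%. The leading heavy chain variable segment took 27.3% of variable segment counts in WT 3 and 8.07 to 20.3% in the other 9 libraries. For the kappa light chain it took 28.6% in WT 3 and 8.19 to 14.8% elsewhere. Reads of variable segments are hard to assign between near-identical segments and were counted uniquely, so these shares are uncertain.

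**Figure D2:**
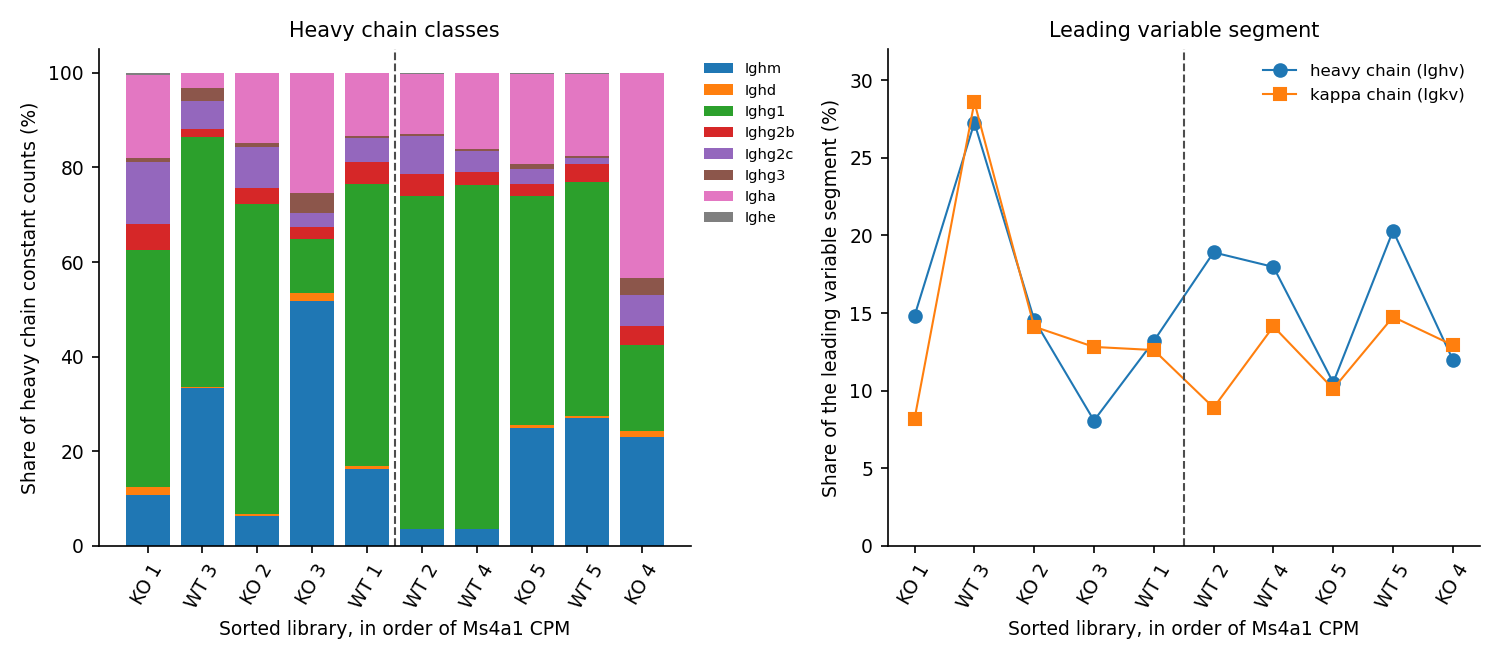
Left, the share in percent of each heavy chain constant gene among heavy chain constant counts (bars stack to 100%); right, the share in percent of the leading variable segment among heavy chain and kappa chain variable segment counts. Libraries run in falling order of Ms4a1 with a dashed line between the sides; WT 3 has the leading segments with the largest shares, 27.3 and 28.6%.

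All 10 germinal centre genes overlapped between the sides, which is again near the background. Their median difference was 0.37, with 8 of 10 positive. Of 10 genes of naive and recirculating lymphocytes, 3 were higher with no overlap, against 0.819% of all genes, and all 10 had positive differences (median 0.76), against 36.5% of all genes. S1pr1, the receptor by which lymphocytes leave tissue, was at 57.4, 36.1, 48.6, 43.05 and 34.7 on the B-cell-rich side and 18.3, 13.7, 14.8, 18.7 and 23.4 on the B-cell-poor side, in CPM. The sides were well separated. Ccr7, the receptor for lymph node chemokines, differed by 0.87. Lef1, a factor of naive T cells, overlapped between the sides and was at 27.6 CPM in IL33KO 1 against 2.71 to 10.5 CPM in the other 9. Glycam1, a product of lymph node venules, was at 3.29 CPM in that library and 0.0685 to 0.278 CPM in the others. It did not pass the filter on low counts. Madcam1 and Chst4, on the same list of lymph node stroma and venules, lay inside the range of the others there. Madcam1 was at 0.986 CPM in IL33KO 1 and 0.0938 to 1.005 CPM in the others. Chst4 was at 0.176 CPM and 0.0343 to 0.472 CPM. Ccl21a, on the chemokine list, was highest in IL33KO 1, at 9.63 CPM against 1.23 to 6.83 CPM. The part of these genes in the high B cell values of IL33KO 1 was not tested.

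Single members of other lists had no overlap, where 0.819% of all genes were higher in this way. Of 12 signalling genes that B cells share with other leukocytes, 1 was higher with no overlap: Plcg2, a phospholipase below the B cell receptor, at 155, 147, 161, 174 and 182 on the B-cell-rich side and 136, 114, 121, 119.5 and 144 on the B-cell-poor side, in CPM. The separation was complete but small, a difference of 0.37. Of 7 marginal zone and B-1 genes 1, S1pr3, was higher with no overlap, and of 12 genes of B cell help and survival 0 were, near the background. Among 9 lymphoid chemokine, receptor and lymphotoxin genes only Ccr6, a chemokine receptor of B cells and some T cells, had no overlap, with means of 7.32 ± 3.48 against 2.24 ± 0.41 CPM (SD, n = 5). Cxcl13, the ligand of CXCR5, ran from 1.14 CPM in IL33KO 3 to 25.1 CPM in WT 3 on the B-cell-rich side and from 4.32 to 9.47 CPM on the other. IL33KO 3 had the lowest level of all, so the sides overlapped. Ly6d, placed on the plasmacytoid dendritic cell list and also a B lineage marker, was higher with no overlap, with a difference of 1.25.

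**Figure D3:**
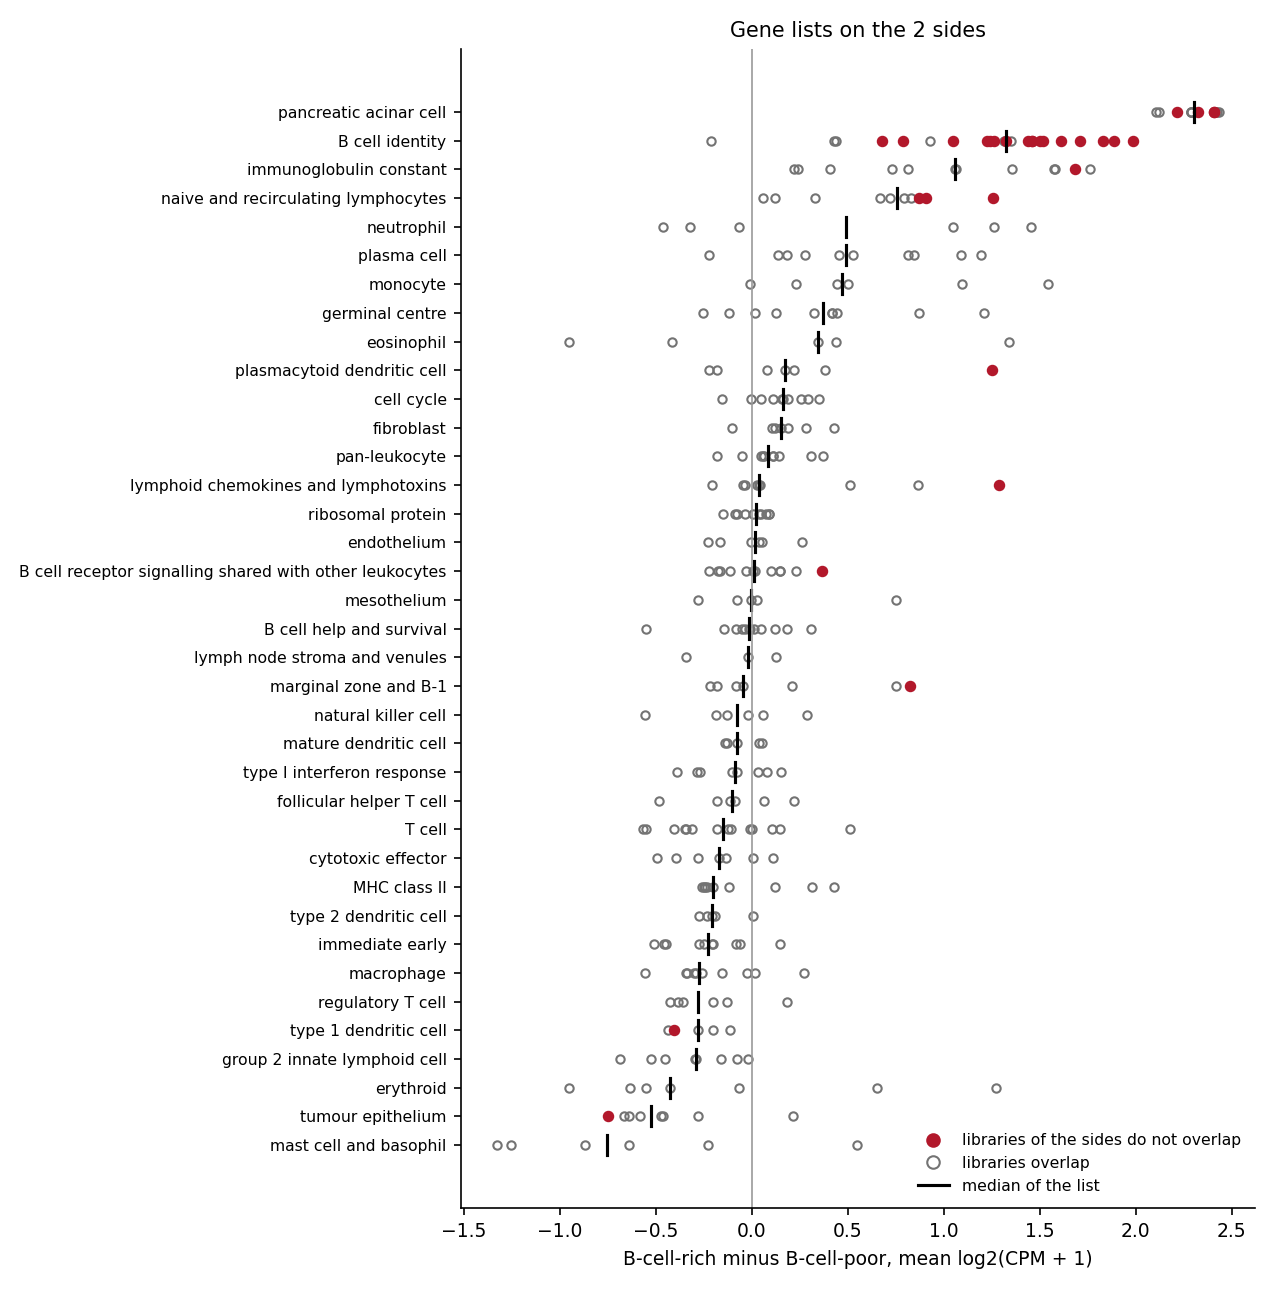
Difference of mean log2(CPM + 1), B-cell-rich minus B-cell-poor, for every compared member of each gene list (points), with the list median as a bar; filled points are genes whose libraries do not overlap between the sides. The acinar list (median 2.30) and the B cell identity list (1.32) lie farthest to the right, the mast cell and basophil list (-0.75) and the tumour epithelium list (-0.53) farthest to the left.

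T cell genes did not go with the B cell genes. All 14 overlapped between the sides, and the median difference was -0.15. Within the WT libraries all 14 differences were positive (median 0.35), and within the IL33KO libraries none was (median -0.70). The difference between the genotypes was not tested. The summed level of the list was 1303 CPM in WT 1 and 789.7 CPM in WT 3 against 617 to 1190.5 CPM in the B-cell-poor WT libraries, so WT 1 set much of the WT difference. In IL33KO it was 511 to 984 CPM on the B-cell-rich side and 1157 and 1407 CPM on the other. Cd8a, the coreceptor of cytotoxic T cells, was at 117, 139, 124, 55.5 and 225 on the B-cell-rich side and 128, 97.6, 244, 246 and 245 on the B-cell-poor side, in CPM. WT 1 on one side and IL33KO 5, WT 5 and IL33KO 4 on the other were the high libraries, and IL33KO 3 was the lowest. Follicular helper T cell, regulatory T cell, cytotoxic, natural killer cell and group 2 innate lymphoid cell lists each had 0 members without overlap. Lists of 6 to 8 genes are too short for such a count to differ from the background of 0.819% higher and 1.82% lower. All 8 innate lymphoid genes had negative differences (median -0.29), as did 63.5% of all genes.

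Across all genes 137 were higher and 305 lower on the B-cell-rich side with no overlap, the latter 1.82% of those compared. Among the higher ones were the 17 B cell identity genes, 4 pancreatic acinar genes and 3 immunoglobulin segments. The split depended on scaling: with TMM-scaled library sizes it was 220 higher and 205 lower, and in the authors' table scaled by DESeq size factors 188 and 219. Leaving out both WT 3 and IL33KO 3 gave 352 and 465. With a single library left out the largest counts were 299 and 820 without WT 1, 209 and 667 without WT 2, 223 and 362 without WT 3, 179 and 874 without IL33KO 1, and 262 and 550 without IL33KO 4; fewer libraries make no overlap easier to meet.

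Of the 15 largest higher differences named by rule, 8 were genes of acinar cells or pancreatic secretion. Fcnb, a ficolin of myeloid cells, led with 121 CPM in IL33KO 3, 14.9 to 17.8 CPM in the other 4 B-cell-rich libraries and a mean of 4.92 ± 4.84 CPM (SD, n = 5) on the B-cell-poor side. IL33KO 3 held most of its level, and WT 2 lay just below IL33KO 1. Cpb1, the acinar enzyme carboxypeptidase B, was at 269, 361, 681, 3853 and 303 on the B-cell-rich side and 54.6, 257, 91.5, 189 and 72.8 on the B-cell-poor side, in CPM. IL33KO 3 was again far above the rest. All 12 genes of the acinar list had positive differences (median 2.30), against 36.5% of all genes, and IL33KO 3 was the highest library for each. Of the 12, 4 were higher with no overlap, against 0.819% of all genes. In the 8 with overlap WT 4 was the one B-cell-poor library above the lowest B-cell-rich one. The summed level of the list was 3323 to 47324 CPM on the B-cell-rich side and 709 to 3471 CPM on the other. The part of acinar tissue in the differences of the B cell genes was not tested.

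Chst3, a sulfotransferase of extracellular matrix sugars, was the one gene named by that rule outside the B cell list that was neither secretory nor myeloid. It was at 41.7, 14.4, 25.3, 17.9 and 14.9 on the B-cell-rich side and 9.76, 6.36, 6.48, 6.07 and 3.69 on the B-cell-poor side, in CPM. Like Pax5 it was highest in IL33KO 1 and IL33KO 2. The neutrophil gene S100a8, which overlapped between the sides, was at 4388 CPM in IL33KO 3 and 351 to 1080.4 CPM in the other 9. S100a9 was also highest in IL33KO 3, at 7685 CPM. Csf3r was not, at 320 CPM there and 688 CPM in WT 2, and Cxcr2 was at 227.0 and 227.4 CPM in these libraries. Of the 6 neutrophil genes 3 had positive differences and 3 negative ones, against 36.5% and 63.5% of all genes.

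Several of the named genes that were lower on the B-cell-rich side are known from epithelium. Hes1, a target of Notch signalling, was at 45.6, 21.4, 27.6, 21.2 and 40.03 on the B-cell-rich side and 49.4, 61.03, 87.2, 78.2 and 57.2 on the B-cell-poor side, in CPM. It was the gene with the largest such difference, -1.11. Elf3, an epithelial ETS factor, was at 63.97, 40.4, 55.4, 57.7 and 39.96 on the B-cell-rich side and 66.3, 96.3, 147, 99.4 and 79.6 on the B-cell-poor side, in CPM. IL33KO 1 came close to WT 2 in both genes. Pigr, the epithelial transporter of polymeric immunoglobulin, differed by -0.87, and Muc1, a mucin of glandular epithelium, by -0.75. Otop3, Duoxa2, Duox2, Bace2 and Slc44a4 differed by -1.09 to -0.70. On the tumour epithelium list 7 of 8 genes had negative differences (median -0.53), against 63.5% of all genes. Of the 8, 1, Muc1, was lower with no overlap, against 1.82% of all genes. The summed level of the list was 931 to 1865 CPM on the B-cell-rich side and 1617 to 2719.6 CPM on the other. Whether the amount of tumour cell RNA in a library bears on the other differences was not tested.

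Mast cell and basophil genes had a median difference of -0.75 and all 6 overlapped between the sides. With 0.819% of all genes higher and 1.82% lower with no overlap, that is near the background. Mcpt4, a mast cell protease, was at 26.3, 16.5, 16.1, 17.8 and 53.5 on the B-cell-rich side and 29.1, 45.3, 109, 47.99 and 109 on the B-cell-poor side, in CPM. WT 1 was the one B-cell-rich library among its high values, and IL33KO 5 and IL33KO 4 were highest. Of 5 type 1 dendritic cell genes 1 was lower with no overlap, against 1.82% of all genes. All 5 had negative differences (median -0.28), as did 63.5% of all genes. The 1 with no overlap was Clec9a, a receptor of these cells, with a difference of -0.40. Its means were 13.4 ± 1.71 against 18.3 ± 4.91 CPM (SD, n = 5).

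**Figure D4:**
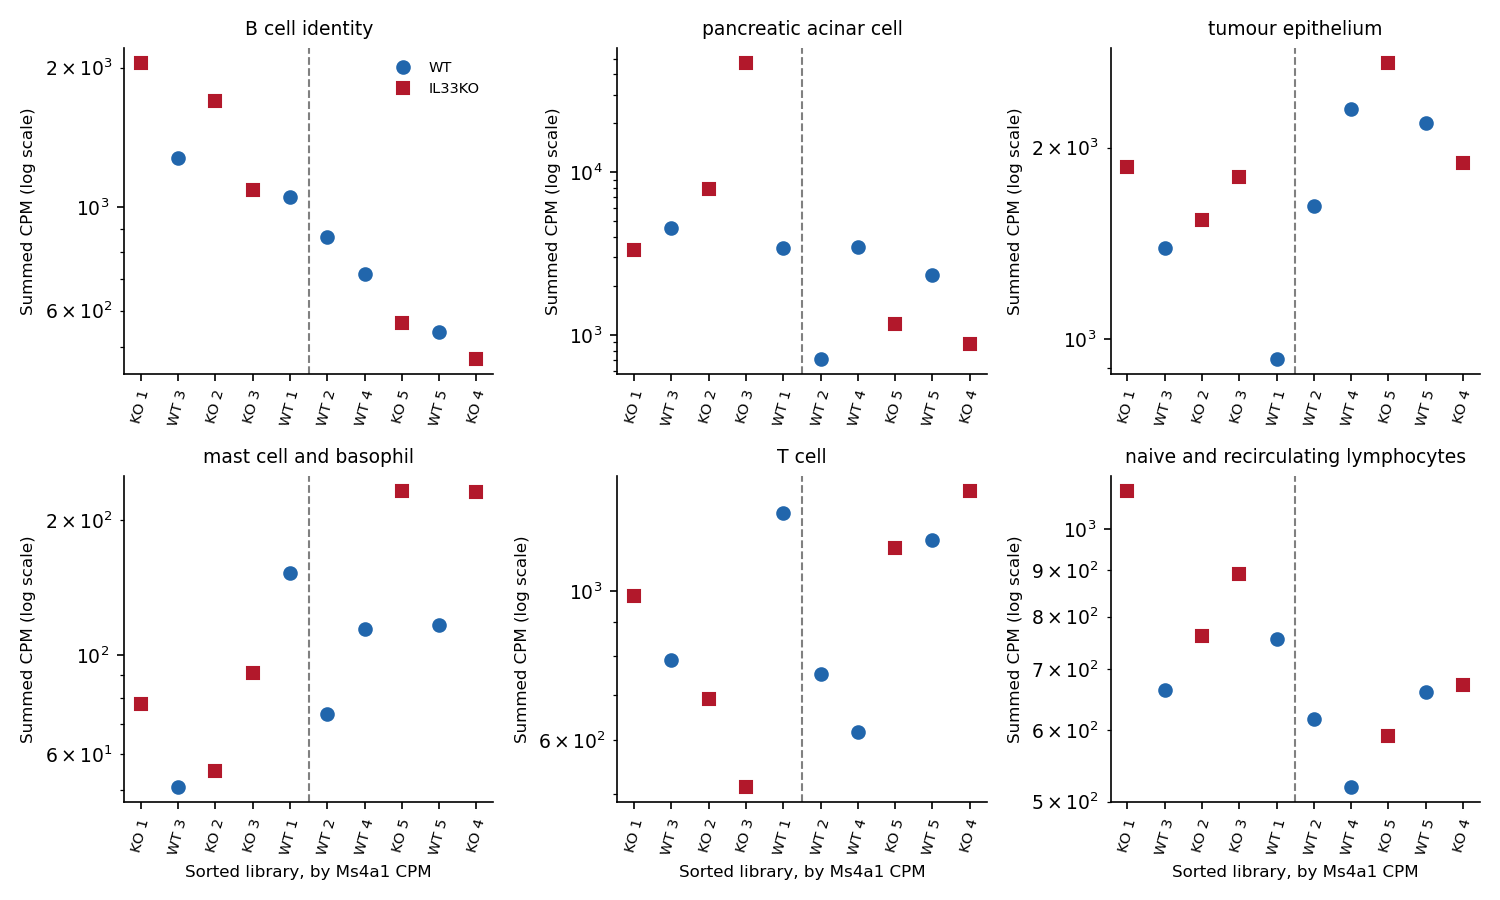
Summed CPM on a log axis of 6 gene lists in each sorted library, in falling order of Ms4a1 with a dashed line between the sides; blue circles are WT and red squares IL33KO libraries, and the B cell identity sum includes Ms4a1. The B cell identity sum is 1051 to 2050 CPM to the left and 472 to 863 CPM to the right, and the acinar sum of IL33KO 3 reaches 47324 CPM.

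The differences of the B cell identity genes were present within each genotype, which was not so of every list. Within WT, with 2 B-cell-rich and 3 B-cell-poor libraries, 22 of the 23 B cell identity genes other than Ms4a1 had positive differences (median 0.78). Within IL33KO, with 3 and 2 libraries, 22 of 23 did (median 1.97). The sides within a genotype are still those set on Ms4a1, which marks the same cells. These counts therefore describe the ranking and are not independent of it. Over the 10 libraries together 36.5% of all genes had a positive difference, and that share within each genotype is not given here. The value within IL33KO was the larger for 22 of 23 genes; Ms4a1, on which the sides were set, also differed more there (2.68 against 1.69). Cr2 differed by 1.22 within WT and 2.49 within IL33KO, and Pax5 by 0.85 and 2.29. With values centred on their genotype, 12 of the 23 members were higher with no overlap, against 129 of all 16730 genes.

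**Figure D5:**
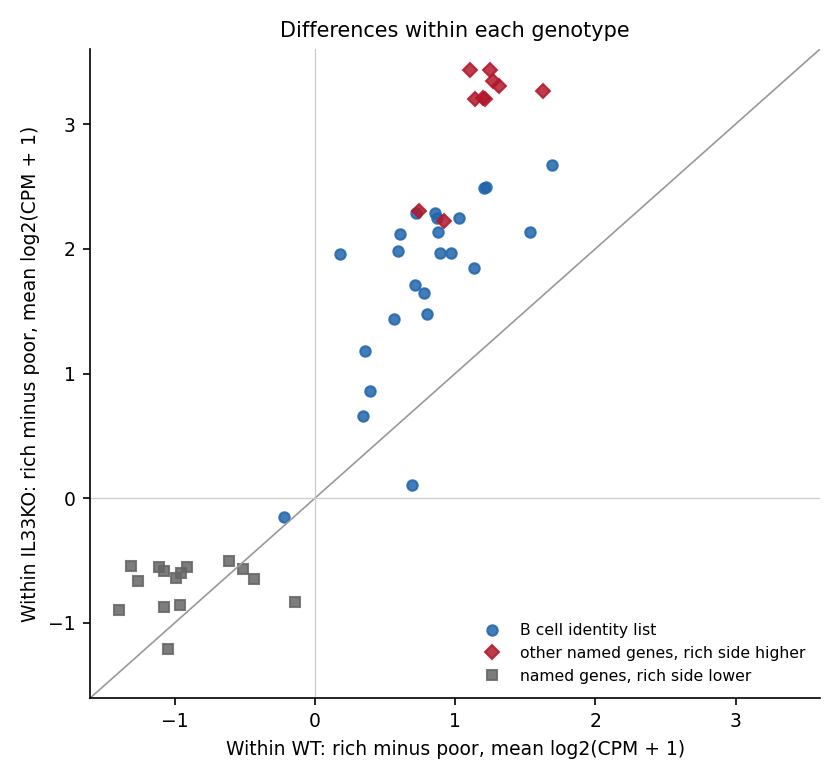
Difference of mean log2(CPM + 1), B-cell-rich minus B-cell-poor, within WT (horizontal axis) and within IL33KO libraries (vertical axis); each point is a gene of the B cell identity list or one of the other genes named for a large difference, and the diagonal marks equal values. Most B cell genes lie above the diagonal, such as Pax5 at 0.85 and 2.29.

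Genotype, which the labels give and the ranking did not use, was tested over the 10 sorted libraries with edgeR's quasi-likelihood test and Benjamini-Hochberg adjustment over 16731 genes. Of the 24 B cell identity genes, Ms4a1 included, 0 passed the adjusted threshold of 0.05, and 0 had an unadjusted p under 0.05. Over all 16731 genes, 2156 had an unadjusted p under 0.05 by edgeR. DESeq2 called 0 (1 with an unadjusted p under 0.05), and limma voom 0 (2). Over all genes the share called by edgeR was 0.00598% in each direction, 1 gene each; DESeq2 called 566 genes and limma voom 400. The log2 fold change of IL33KO over WT was positive for 20 of the 24, with a median of 0.48 against 0.02 over all genes. Ms4a1 was at 68.9 ± 51.6 CPM in IL33KO and 40.2 ± 35.2 CPM in WT (SD, n = 5), a log2 fold change of 0.69 (SE 0.76) with an adjusted p of 0.752 by edgeR. Cr2 was at 26.1 ± 20.6 and 9.64 ± 5.26 CPM, a log2 fold change of 1.37 (SE 0.68) with an adjusted p of 0.443 by edgeR. For both genes the SD over the IL33KO libraries exceeded the distance between the means. Nothing ties a library to 1 mouse, so such p-values reflect only how far these libraries differ, and part of that may be technical. Without WT 3 the log2 fold change of Ms4a1 was 1.42, with an adjusted p of 0.346 by edgeR, and over all single omissions it was 0.37 to 1.42.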

How the data were processed

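RNA-seq of 10 sorted leukocyte libraries was used, with 10 bulk tumour libraries for single values. The authors deposited raw counts per gene, made with HTSeq on mm10 (GRCm38) per the submitters' processing notes, which also name Picard and DESeq; the aligner, the strand setting and the versions were not given in the sources used here. Overlapping and antisense genes are therefore uncertain. They also deposited a second table of signal, which per the file headers holds counts scaled with DESeq, used here only as an alternative. The table holds 46983 genes and 5 summary lines, which took 28.0 to 40.5% of a sorted library's reads and were left out. Groups and replicate numbers came from the sample titles; columns named B6 were taken as wild type.

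CPM was the count over the column sum of genes. Sides were set on Ms4a1, which was left out of every count of genes. Genes were those kept by filterByExpr (16731 with Ms4a1). Differences are between means of log2(CPM + 1). Genotype was tested with edgeR 4.0.16 in R 4.3.3 (TMM, glmQLFit with robust estimation, glmQLFTest, two-sided, Benjamini-Hochberg over all genes, threshold 0.05), with DESeq2 1.42.0 and limma 3.58.1 as alternatives. The test script was tested on simulated data. Other alternatives changed scaling, filters, the pseudocount, genotype centring, the replicate block and which libraries entered.

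There were 37 lists with 318 symbols, 1 of which was absent from the table. Members and lists were chosen with earlier results of these data known. Named were all members of the B cell identity and immunoglobulin constant lists, the first 4 of each other list, and the 15 largest differences per direction without overlap and with at least 5 CPM on the higher side. Predicted genes and variable segments were not named singly, and the results of some list members are not reported here. Mzb1, Derl3, Ccr6, Cd8a, Ly6d and S1pr1, list members outside that rule, were chosen after their values were seen. Promoter windows are those of RefSeq (GRCm38).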

Additional observations from a re-analysis of the deposited data

Results flagged for a closer look

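Single libraries were set against the other 4 of their genotype for 44 genes, 88 groups in all, by the gap to the nearest library over the whole range (Dixon's criterion). Chance flags about 1 in 20 such groups. Glycam1 was at 3.29 CPM in IL33KO 1 and 0.075 to 0.278 CPM in the other IL33KO libraries. Hbb-bs was at 15.04 CPM in WT 3 and 224 to 435 CPM in the other WT libraries.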

How the results depend on the processing

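The count of B cell identity genes higher with no overlap was 16 or 17 under the scalings and filters, 17 or 18 with a single library left out, 17 without both WT 3 and IL33KO 3, and 12 with values centred on genotype. Over all genes the higher count was 220 with TMM-scaled library sizes, and the lower count was 532 with genotype centring, where 129 were higher. Single omissions gave 157 to 299 higher and 345 to 874 lower genes; without both WT 3 and IL33KO 3 they were 352 and 465. Leaving out libraries at the same CPM can only keep or raise a count of genes without overlap, so those values are no sign of stability. The cause of the other shifts was not tested.

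Differences of 199 genes, those named by rule or in the text, were recomputed under 20 settings, and 3960 of 3966 values moved by less than the spread between libraries. Of the 50 genes with no overlap 0 changed sign, and of the 149 with overlap 55 did under at least 1 setting, Ighg1, Igha, Ighe and Hbb-bs among them. A gene with no overlap must keep its sign when libraries are left out or the pseudocount or filter changes. Its count of 0 was therefore mostly fixed in advance and is no sign of stability. The values that moved further, 6 in all, were those of low genes with a pseudocount of 5, such as Otop3, Duoxa2, Smarcd3, S1pr3 and Ccr6. No B cell identity gene passed the genotype threshold under any fit run, with lowest adjusted p from 0.139 (limma voom) to 0.677 (edgeR without WT 2). The log2 fold change of Ms4a1 was 0.37 to 1.42 over single omissions and -0.0079 (adjusted p 0.995, edgeR) with the side as a term, which is itself ranked on Ms4a1. Correlations of deviations between libraries of the same number were -0.19 to 0.39, and 3 of 5 numbers had their own number as best partner. So few libraries cannot decide whether the numbers pair the samples. With the replicate block the log2 fold change of Ms4a1 was 0.52 (adjusted p 0.647, edgeR). Under that fit 0 B cell identity genes passed, and 1 gene was called in place of 2. Depth was not limiting for the genes named at 1 CPM or more; those near 0.1 CPM rest on few counts.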
